A study of Mus musculus with 24 samples.

Results

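CpG-dense windows away from promoters were the windows among the differentially 5-hydroxymethylated regions (DhMRs) of 2 mouse embryonic stem cell (ESC) lines whose sequence had a GC content over 50% and a ratio of observed to expected CpGs over 0.6, with a midpoint outside the stretch from 1000 bp upstream to 100 bp downstream of every RefSeq transcription start site. The expected number of CpGs is that of a random sequence with the same GC content. Sequence and position alone chose the windows, so the direction of the 5hmC difference was not used. There were 355 such windows among 20726 listed DhMRs, or 1.71% (95% Wilson interval 1.54 to 1.90). The 5hmC level was higher in Wt25 cells for 225 of them (Wt25 windows below) and in AA10 cells for the remaining 130 (AA10 windows).

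Wt25 and AA10 are 2 mouse ESC lines on a mixed C57BL/6J-129V background without their own *Tet1*, *2* and *3* genes, each a single clone selected by puromycin after lentiviral infection. Wt25 carries human wild-type Tet3 and AA10 carries human Tet3 in which the sites phosphorylated by cdk5 were changed to alanine, and both were kept in 2i medium with leukemia inhibitory factor. In 5hmC-DIP an antibody recovers denatured fragments that hold 5-hydroxymethylcytosine (5hmC), and there were 3 libraries of each line. The lines were compared by the authors over these libraries together in bins of 200 bp, of which 198 bp are listed, and the lists hold positions and genes without any count, effect size or *P*-value. The spread between replicates and the depth behind a window therefore cannot be given, differences between the clones and differences between the Tet3 proteins cannot be told apart, and all tests below count windows of the 2 lists. Windows that lie close together are not independent, so their *P*-values may be too small.

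Tet enzymes oxidise 5-methylcytosine, which in mammals lies mostly at CpGs, to 5hmC and further to bases that repair can replace with cytosine. Most of the mouse genome is poor in CpGs because methylated cytosines mutate readily, and CpG islands are the stretches that kept them, usually without methylation and often at promoters. CpG-dense sequence also occurs inside genes and between them, in some exons, near developmental genes and in young repeats.

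The sequences of 5 windows are shown because they are CpG-rich examples of both directions, and so show what the antibody signal was compared over. No AA10 window between genes is shown. Each holds the most CpGs of its direction in a coding exon, an intron or intergenic sequence among windows with no base marked as a repeat and no overlap with an annotated UTR, so richer windows such as those of *Ltk* are not shown. Each is the plus strand of GRCm38.p6, 5′ to 3′, with every CpG in capitals. The first lies at chr2:157560403-157560600 in a coding exon of *Nnat*, which encodes neuronatin, inside an intron of the overlapping gene *Blcap*. It had higher 5hmC in Wt25 cells and holds 22 CpGs:
Nnat: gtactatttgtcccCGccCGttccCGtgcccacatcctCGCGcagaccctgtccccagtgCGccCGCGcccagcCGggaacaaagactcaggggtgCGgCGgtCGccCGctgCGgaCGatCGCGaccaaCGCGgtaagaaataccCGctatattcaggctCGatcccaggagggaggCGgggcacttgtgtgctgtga
The second lies at chr17:80945003-80945200, across an exon edge of *Tmem178* with its midpoint in the intron. It had higher 5hmC in Wt25 cells and holds 26 CpGs:
Tmem178: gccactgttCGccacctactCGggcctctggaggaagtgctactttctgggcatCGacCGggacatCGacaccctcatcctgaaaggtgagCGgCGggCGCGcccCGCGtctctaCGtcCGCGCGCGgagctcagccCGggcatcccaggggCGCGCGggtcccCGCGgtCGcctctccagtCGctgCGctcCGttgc
The third lies at chr1:165281803-165282000 between genes, 13864 bp upstream of the start of *Gpr161*, which encodes a receptor of the hedgehog pathway. It had higher 5hmC in Wt25 cells and holds 32 CpGs:
Gpr161: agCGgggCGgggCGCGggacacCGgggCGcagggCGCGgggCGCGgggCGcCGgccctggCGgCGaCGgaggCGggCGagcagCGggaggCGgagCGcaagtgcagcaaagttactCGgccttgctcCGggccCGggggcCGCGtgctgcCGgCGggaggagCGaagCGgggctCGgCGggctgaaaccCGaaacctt
The fourth lies at chr11:5058403-5058600 in the first coding exon of *Rasl10a*, which overlaps *Gas2l1*. It had higher 5hmC in AA10 cells and holds 20 CpGs:
Rasl10a: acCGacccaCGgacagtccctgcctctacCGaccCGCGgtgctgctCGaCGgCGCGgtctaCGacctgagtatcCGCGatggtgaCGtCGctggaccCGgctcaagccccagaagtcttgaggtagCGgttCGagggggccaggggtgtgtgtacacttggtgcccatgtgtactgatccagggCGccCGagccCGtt
The fifth lies at chr1:89581403-89581600 in an intron of *Agap1*, which encodes an Arf GTPase-activating protein. It had higher 5hmC in AA10 cells and holds 28 CpGs:
Agap1: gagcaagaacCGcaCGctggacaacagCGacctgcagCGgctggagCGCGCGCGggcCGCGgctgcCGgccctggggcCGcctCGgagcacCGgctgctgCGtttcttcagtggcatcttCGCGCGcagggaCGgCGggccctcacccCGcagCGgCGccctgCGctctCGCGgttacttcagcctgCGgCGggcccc
The Wt25 windows at *Nnat*, *Tmem178* and *Gpr161* hold 1, 2 and 5 sites for the *Msp*I enzyme (CCGG), and the AA10 windows at *Rasl10a* and *Agap1* hold 1 and 2. Those at *Nnat*, *Tmem178* and *Rasl10a* lie in unbroken stretches of CpG-dense bins that reach a promoter bin. Only 22 of the 355 windows (6.20%) lie in such a stretch.

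Such windows were more frequent in the lists than in the genome. Among promoter windows alone, the CpG-dense share was lower in the lists than in the genome. Of all 13237133 bins of the genome without unknown bases, 0.629% met the same rule, so the share in the lists was 2.72 times as high. It was 1.86% (1.63 to 2.12) of the Wt25 windows and 1.51% (1.27 to 1.79) of the AA10 windows. Counted away from promoters alone, 1.76% (1.59 to 1.96) of 20121 listed windows and 0.636% of genome bins were CpG-dense. In promoters, 8.60% (6.61 to 11.1) of 605 listed windows and 16.9% of genome bins were. Promoters held 52 of 407 CpG-dense listed windows (12.8%, 9.88 to 16.4), against 24.2% of CpG-dense genome bins. The genome values are a description with no test, since bins to which no read maps uniquely or which the authors filtered out could not be listed.

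The 355 windows held 12.2 ± 4.11 CpGs (SD over windows), with a median of 11 and a range of 8 to 32. All 83229 genome bins of the rule held 14.02 ± 5.71, and the 19766 other listed windows away from promoters held 2.99 ± 1.92. The rule itself sets the high number of CpGs in the window, so only the bins around it are compared. Bins 200 bp before the window on the plus strand held 6.92 ± 0.394 CpGs (SEM) around Wt25 windows and 6.50 ± 0.539 around AA10 windows, against 9.41 around genome bins of the rule. Bins 1000 bp after it held 4.04 ± 0.315 and 3.44 ± 0.355, against 3.96. Around the 52 CpG-dense promoter windows, bins 1000 bp after the window held 6.38 ± 1.02. The plot of CpG number by distance shows that the Wt25 and AA10 profiles run close together, and that both lie below the genome bins in the nearest bins. These values were not tested.

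**Figure D1:**
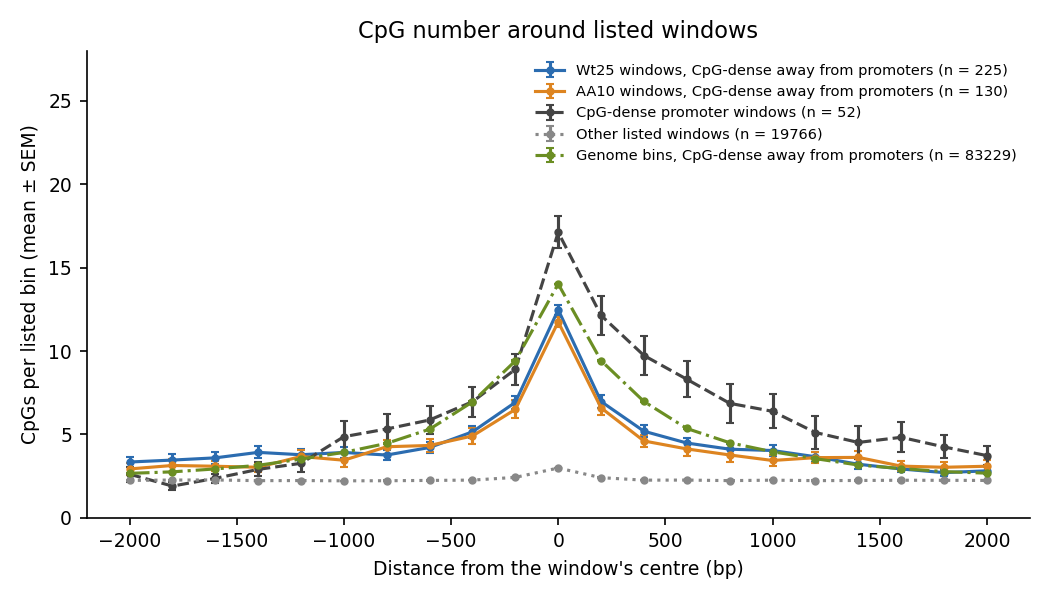
Mean number of CpGs (± SEM over windows) per listed 198 bp of the bins from 2000 bp before to 2000 bp after a window's centre, by distance in bp. CpG-dense windows away from promoters peak at 12.5 CpGs for Wt25 and 11.7 for AA10, below the 14.02 of genome bins of the rule and the 17.1 of CpG-dense promoter windows and above the 2.99 of other listed windows away from promoters.

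Most of the windows were the only CpG-dense bin at their place. A single CpG-dense bin with no such bin beside it made up 234 of the 355 windows (65.9%, 60.8 to 70.7), against 50.6% of genome bins of the rule. Unbroken stretches of at least 3 CpG-dense bins held 54 windows (15.2%, 11.8 to 19.3), against 32.0% of genome bins. They held 39 of 225 Wt25 windows (17.3%) and 15 of 130 AA10 windows (11.5%), a difference that was not past the threshold (odds ratio 1.61, 0.821 to 3.28, *P* = 0.168, Fisher's exact test, two-sided). Only 22 windows (6.20%) lay in a stretch that reached a promoter bin, against 19.7% of genome bins. Where a stretch was long it was mostly listed in part: of 45 stretches of at least 3 bins that held such a window, 37 had a single listed bin and 2 had every bin listed. None of the 341 stretches that held the 355 windows had windows of both directions among them, and most could not, since they held only 1. *Agap1* is an example of a long stretch with a listed bin, since its window with 28 CpGs lies in a run of 9 CpG-dense bins.

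**Figure D2:**
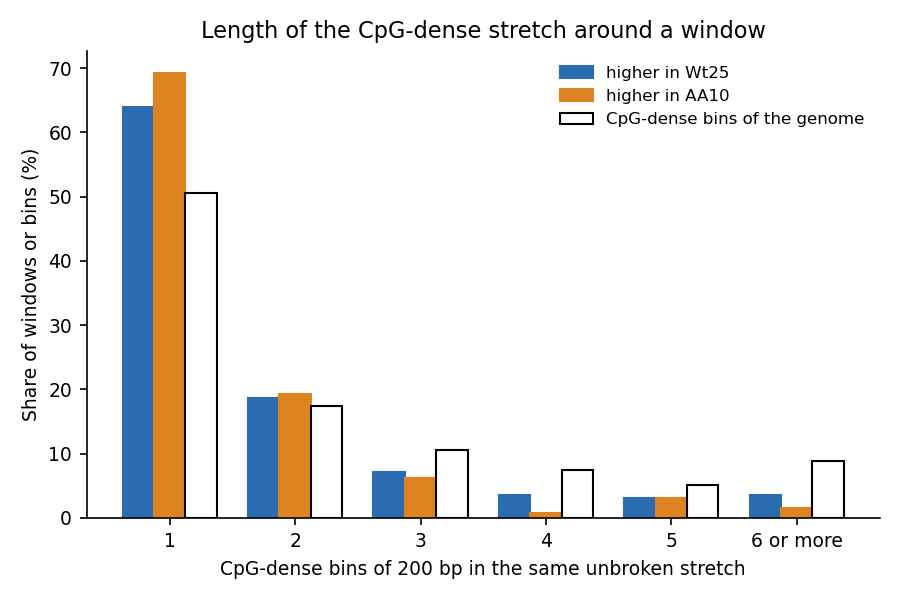
Share (%) of CpG-dense windows away from promoters (225 higher in Wt25, 130 higher in AA10) and of CpG-dense genome bins away from promoters, by the number of consecutive CpG-dense 200 bp bins they lie in. Single bins make up 64.0% of Wt25 windows and 69.2% of AA10 windows against 50.6% of genome bins, and the genome bins lead from 3 bins on.

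Of the 355 windows, 63.4% (58.3 to 68.2) had higher 5hmC in Wt25 cells, against 58.4% of all listed windows and 58.3% (57.6 to 58.9) of the 20371 other windows. This difference did not pass the threshold (odds ratio 1.24, 0.992 to 1.55, *P* = 0.0573, Fisher's exact test, two-sided). It passed it when directions were compared within chromosomes (odds ratio 1.28, *P* = 0.0349, Mantel-Haenszel test), and when windows in dense runs were left out (216 Wt25 and 107 AA10 windows, odds ratio 1.30, *P* = 0.0287, Fisher's exact test). The higher Wt25 share was not seen against other windows past the same GC limit, which were not matched further in GC content. Other listed windows with a GC content over 50% were 64.9% Wt25 (63.7 to 66.1, 5984 windows), which gave an odds ratio of 0.936 (0.746 to 1.18, *P* = 0.568, Fisher's exact test). Against the 52 CpG-dense promoter windows, of which 31 were Wt25 and 21 AA10, the odds ratio was 1.17 (0.613 to 2.21, *P* = 0.646, Fisher's exact test).

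Across all listed windows away from promoters, the Wt25 share was higher in each class of higher GC content, without such an order by CpG ratio. It was 50.5% at a GC content up to 40%, 57.4% from 40 to 50%, 64.4% from 50 to 55%, 65.4% from 55 to 60% and 68.6% above 60%. Windows with a CpG ratio over 0.6 had 49.3%, 56.6%, 59.0%, 62.0% and 71.0% in the same classes. At a GC content over 50%, windows with a CpG ratio up to 0.2 had the higher Wt25 share, 68.4% (66.4 to 70.4), and those with a ratio of 0.4 to 0.6 had 59.2% (56.1 to 62.2). The CpG-dense windows had 63.3% (57.5 to 68.8) at a ratio of 0.6 to 0.8 and 63.6% (52.5 to 73.5) above 0.8. These shares are given as values, with no test of a trend.

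**Figure D3:**
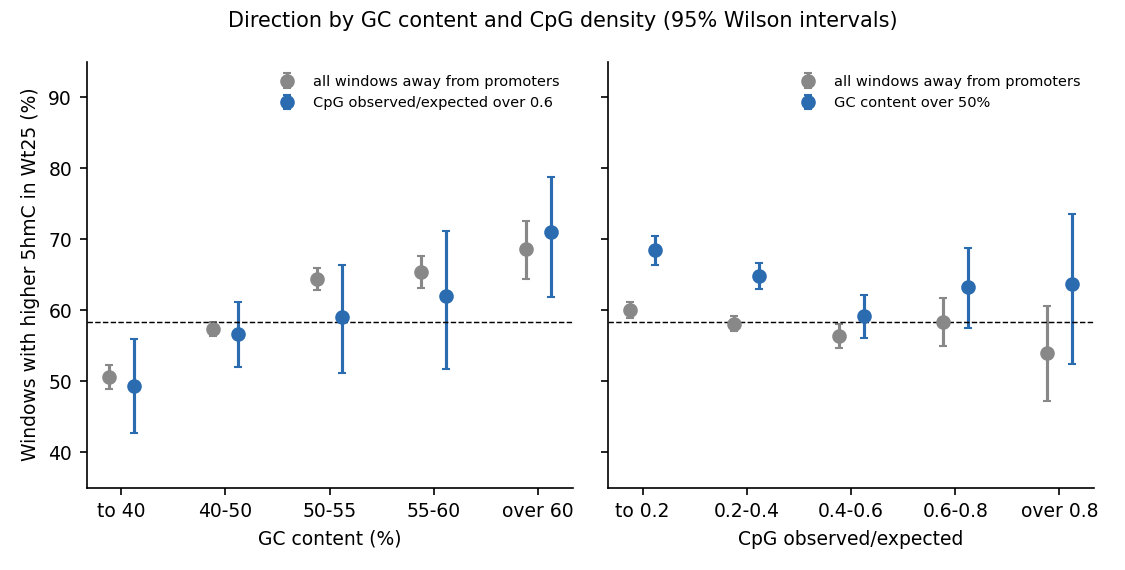
Share of listed windows away from promoters with higher 5hmC in Wt25 cells (%, 95% Wilson intervals) by GC content (left, all windows and those with a CpG ratio over 0.6) and by the ratio of observed to expected CpGs (right, all windows and those with a GC content over 50%). The dashed line is the 58.4% of all listed windows, and the share is higher in each class of higher GC content.

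By number of CpGs, the Wt25 share of the 355 windows was 56.7% (51 Wt25 and 39 AA10) at 8 or 9 CpGs, 64.8% (70 and 38) at 10 or 11, 60.5% (52 and 34) at 12 to 14, 74.5% (38 and 13) at 15 to 19 and 70.0% (14 and 6) at 20 or more. At least 10 CpGs were found in 77.3% of Wt25 windows and 70.0% of AA10 windows (odds ratio 1.46, 0.869 to 2.45, *P* = 0.131, Fisher's exact test). The means were 12.5 ± 4.37 CpGs for Wt25 and 11.7 ± 3.58 for AA10 (SD over windows). The richest Wt25 windows held 32 CpGs each, at *Gpr161*, at a pair of neighbouring bins in the coding sequence of *Ltk*, a receptor tyrosine kinase, and in the 5′ UTR of *Pdgfb*, which encodes a platelet-derived growth factor chain. *Tmem178* came next. The richest AA10 windows were that of *Agap1* with 28 CpGs, 3 windows of 1 dense run on chromosome 12 with 27, 21 and 21, and the window at the termination site of *Tnfrsf1a*, which encodes a receptor of tumour necrosis factor, with 20. The AA10 window of *Rasl10a* also held 20.

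Coding exons held far more of the CpG-dense windows than of the others, an outcome that the rule itself favours. In the genome, 8.80% of coding exon bins and 36.8% of 5′ UTR bins away from promoters were CpG-dense, against 0.435% of intergenic bins. The other windows failed the sequence limits, so the tests by feature describe the chosen sequences and cannot speak to 5hmC. Coding exons held 66 of 355 (18.6%, 14.9 to 23.0), against 2.84% of the 19766 other windows away from promoters (odds ratio 7.80, 5.80 to 10.4, Fisher's exact test with Benjamini-Hochberg adjustment over 7 features, adjusted *P* = 1.66e-31). The 5′ UTRs outside promoters held 9 windows (2.54% against 0.202%, odds ratio 12.8, Fisher's exact test, adjusted *P* = 3.85e-07). Introns held 110 (31.0% against 46.0%, odds ratio 0.527, Fisher's exact test, adjusted *P* = 4.64e-08). Intergenic sequence held 146 (41.1% against 46.7%, odds ratio 0.797, Fisher's exact test, adjusted *P* = 0.0481), a difference that was not past the threshold without dense runs (adjusted *P* = 0.0935) or with windows within 1 kb joined (adjusted *P* = 0.111). Termination sites, from 100 bp before to 1000 bp after a transcript's end, held 14 (3.94% against 2.09%, Fisher's exact test, adjusted *P* = 0.0342). Exons of non-coding transcripts held 5 (1.41% against 0.440%, Fisher's exact test, adjusted *P* = 0.0342), a call that was lost without dense runs (adjusted *P* = 0.0755). In 3′ UTRs lay 5 (1.41% against 1.69%, Fisher's exact test, adjusted *P* = 0.837).

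These shares lay near those of all CpG-dense genome bins away from promoters, of which 17.7% were in coding exons, 32.1% in introns and 41.0% in intergenic sequence. The 5′ UTRs held a larger share of genome bins (5.57%) than of windows, and termination sites a smaller one (1.70%). Within a feature, the CpG-dense share of listed windows was 3.58 times that of genome bins in intergenic sequence (1.56% against 0.435%), 3.28 times at termination sites, 2.14 times in introns and 1.19 times in coding exons (10.5%, 8.35 to 13.2, against 8.80%). In 5′ UTRs it was 0.499 times (18.4%, 9.98 to 31.4, against 36.8%), and these ratios were not tested.

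**Figure D4:**
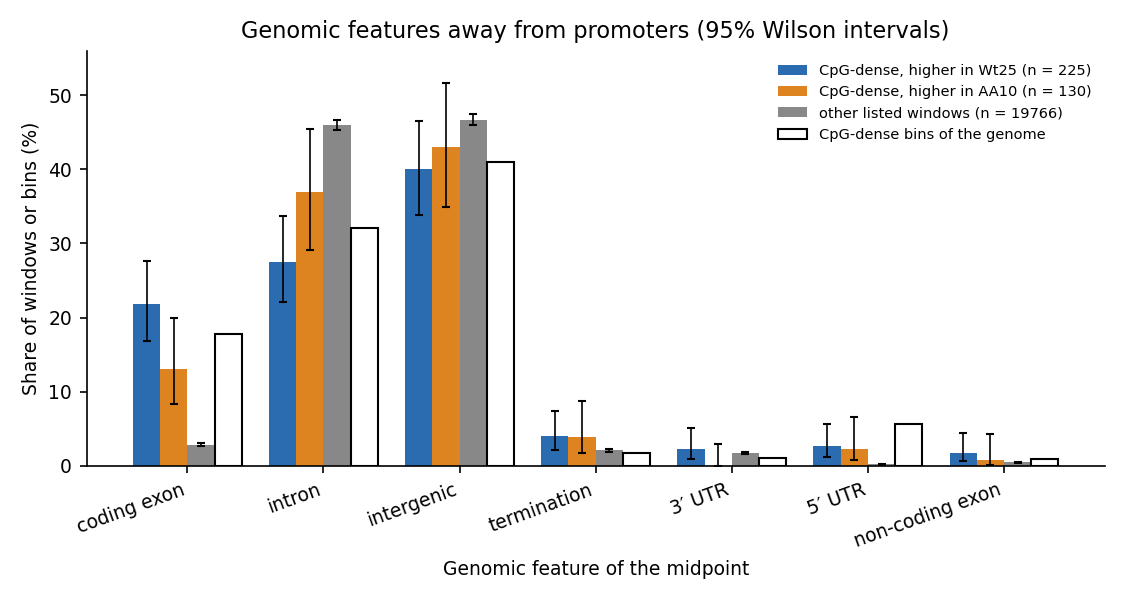
Share (%) of CpG-dense windows away from promoters higher in Wt25 (n = 225) or AA10 (n = 130), of the 19766 other listed windows away from promoters, and of CpG-dense genome bins away from promoters, by genomic feature of the midpoint, with 95% Wilson intervals for windows. Coding exons hold 21.8% of the Wt25 and 13.1% of the AA10 windows, against 2.84% of other windows and 17.7% of genome bins.

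Between the directions, coding exons held 49 Wt25 windows (21.8%, 16.9 to 27.6) and 17 AA10 windows (13.1%, 8.33 to 19.9), and the difference did not pass the threshold after adjustment (odds ratio 1.85, 0.987 to 3.60, Fisher's exact test, adjusted *P* = 0.260). Introns held 62 (27.6%) and 48 (36.9%), which did not pass it either (odds ratio 0.65, 0.400 to 1.06, Fisher's exact test, adjusted *P* = 0.260). Without dense runs the introns held 57 of 216 Wt25 windows (26.4%) and 46 of 107 AA10 windows (43.0%), and this difference passed the threshold (odds ratio 0.475, 0.284 to 0.799, Fisher's exact test, adjusted *P* = 0.0241). Intergenic sequence held 90 (40%) and 56 (43.1%), with an odds ratio of 0.881 (Fisher's exact test, adjusted *P* = 0.919) that was 1.25 without dense runs. All 5 windows in 3′ UTRs were Wt25, in *Prkag2*, *Kcnab3*, *Zic4*, *Slc9a3* and *Sema6b* (Fisher's exact test, adjusted *P* = 0.380).

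Among the 66 coding exon windows, 35 lay in internal exons (25 Wt25 and 10 AA10), 16 in last exons (13 and 3), 10 in first exons (9 and 1) and 5 in genes with a single exon (2 and 3). The internal exons had a median length of 172 bp, so a window spanned most of such an exon, while the last exons had a median of 2022 bp. The first-exon windows of Wt25 included those of *Itpka*, of *Pcdha1* and *Pcdha9*, which encode protocadherins of the alpha cluster, of *Pdx1*, a homeobox factor of pancreas and duodenum, and of *Khdrbs1*, an RNA-binding protein, with 15, 19, 15, 15 and 23 CpGs. The first-exon window of AA10 was that of *Rasl10a*. Single-exon genes were *Fam43a* and *Tram1l1* in Wt25 and *Fzd7*, a Wnt receptor, *Hcar2*, a receptor of hydroxycarboxylic acids, and *Sfn*, a 14-3-3 protein, in AA10. *Pdx1*, *Khdrbs1* and the single-exon genes other than *Fzd7* were named after their values had been seen.

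Distances to the nearest start site are given as values, with no test, since the rule leaves out promoters. The median was 13864 bp, against 22734 bp for the other windows away from promoters, and 12648 bp for Wt25 and 16846 bp for AA10. More than 100 and up to 1000 bp downstream of a start lay 46 windows (13%, 9.86 to 16.9), against 1.79% of the others. That share was 12.9% in Wt25 and 13.1% in AA10. More than 1000 and up to 5000 bp downstream lay 14.6% against 7.76%, while 6.20% against 6.18% lay at this distance upstream. Over 50 kb from a start lay 87 windows (24.5%), of which 55 were Wt25 and 32 AA10.

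Another window of the same direction lay within 1 kb of 116 of the 355 windows (32.7%), against 33.6% of the other windows. This was the case for 28.9% of the Wt25 and 39.2% of the AA10 windows. A window of the opposite direction lay within 1 kb of 4 (1.13%), against 0.435% of the other windows. The 4 lay in *Pakap* (AA10), *Tfcp2* and *Zic4* (Wt25) and near *Foxa1* (Wt25). Another CpG-dense window away from promoters lay within 1 kb of 31 windows (8.73%), against 0.901% of the other windows. These shares were not tested.

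A total of 202 windows, 130 Wt25 and 72 AA10, lay inside RefSeq genes. They fell into 202 genes, 133 with Wt25 windows and 69 with AA10 windows, and no gene held CpG-dense windows of both directions. A window was counted in every gene that contains it. The Wt25 window of *Pcdha9* therefore also counted in the overlapping genes of its cluster, and those of *Nnat* in *Blcap*. Counted by the nearest start site there were 208 and 116 genes with 1 in common, and by the gene of the deposited lists 202 and 109 with 1 in common. For 77 genes the CpG-dense window was the only listed window inside the gene, and 35 genes also held another listed window of the opposite direction. Most genes held a single CpG-dense window, and 15 held at least 2, so most genes could not hold such windows of both directions. The same shares were not computed over all genes with listed windows, so these counts are not read as a trait of CpG-dense windows.

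*Itpka*, which encodes a kinase of inositol trisphosphate, held 4 CpG-dense windows, all Wt25, with 15, 20, 12 and 12 CpGs at 365, 565, 1765 and 1965 bp downstream of its start. It also held 12 other Wt25 windows and no AA10 window. The neighbouring gene *Ltk* held 2 CpG-dense windows with 32 CpGs each and 8 other Wt25 windows. The 2 lay 223 and 423 bp from an annotated transcript start inside the gene, not from its 5′ end. *Rpap1*, which encodes a partner of RNA polymerase II, held 1 with 10 CpGs. These 7 windows lay in a single dense run of 115 Wt25 windows on chromosome 2, so they are not independent of each other. *Pdgfb* held 3 Wt25 windows in its 5′ UTR, side by side at 475, 675 and 875 bp from its start with 11, 18 and 32 CpGs, and only 1 other listed window.

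*Nnat*, an imprinted gene expressed from the paternal allele, and *Blcap*, in whose intron it lies, shared 2 neighbouring Wt25 windows with 15 and 22 CpGs, at 224 and 424 bp from the start of *Nnat*. *Cyp27b1*, the enzyme that makes the active form of vitamin D, held 2 Wt25 windows, in an intron and a coding exon with 14 and 12 CpGs, and no other listed window. *Ttll7*, a tubulin-modifying ligase, held 2 Wt25 windows, at 135 bp and 72535 bp from its start, and no other. *Shisa7*, an auxiliary subunit of synaptic receptors, held 2 at 194 and 8394 bp with 10 and 18 CpGs, besides 5 other Wt25 windows. *Sash1*, a scaffold of signalling proteins, held 2 with 9 and 14 CpGs among 22 other Wt25 windows. *Dym*, which encodes a protein of the Golgi apparatus, held 2 with 8 and 10 CpGs. None of these genes held a listed AA10 window.

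On the AA10 side, *Agap1* held 2 windows with 8 and 28 CpGs, the first 71091 bp from the start of *Agap1* and the second 102390 bp from its nearest start, that of *4933400F21Rik*. Of its 5 other listed windows, 4 were AA10 and 1 was Wt25. *Podxl*, which encodes the sialomucin podocalyxin, held 2 intron windows with 10 and 11 CpGs, at 12835 and 835 bp from its start, besides 6 other AA10 windows. *Sec24c*, a component of the COPII vesicle coat, held 2 neighbouring intron windows with 13 and 11 CpGs, at 181 and 381 bp, and its single other listed window was Wt25. *Gas2l1*, which links actin and microtubules, held 2 with 20 and 14 CpGs, the first shared with *Rasl10a*, besides 4 other AA10 windows, and these lay in a dense run of 68 AA10 windows on chromosome 11.

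Of 10 gene lists defined by symbol, the list of developmental transcription factors held the most CpG-dense windows. It held 9 (2.54%), against 0.440% of the other windows away from promoters and 1.84% of CpG-dense genome bins away from promoters. The list is not complete, since the homeobox gene *Pdx1*, whose Wt25 window is named above, is not in it. Its counts therefore cover the listed symbols only. The Wt25 windows of the list were in *Gsx1*, *Irx1*, *Meis2*, *Pax8*, *Zic4* and *Sox1ot*, the last a non-coding transcript that overlaps *Sox1*. The AA10 windows of the list were in *Hoxa2*, *Hoxa9* and *Hoxc6*. *Pax8*, a factor of thyroid and kidney, had 25 CpGs in an intron 1297 bp from its start. *Gsx1*, a homeobox factor of the forebrain, had 14 in a coding exon, and *Zic4*, a zinc finger factor of the cerebellum, had 14 in its 3′ UTR beside 2 other windows that were AA10. *Irx1* had 9 in a coding exon and *Meis2* had 8 in an intron, with 6 other Wt25 windows and 1 other AA10 window in the gene. *Hoxa2*, which patterns the hindbrain, had 11 in a coding exon, *Hoxa9* had 13 in its 5′ UTR and *Hoxc6* had 12 in an intron. Those of *Hoxa2* and *Hoxa9* lay on chromosome 6, where most windows of every kind were AA10.

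Wnt, BMP, FGF, Notch and hedgehog genes held 5 windows (1.41%, against 0.288% of other windows and 0.822% of CpG-dense genome bins). Wt25 windows lay in *Gli1* and *Ptch1*, the transcription factor and the receptor of hedgehog signalling, with 10 and 9 CpGs, and in *Fzd10os*, a transcript antisense to a Wnt receptor gene, with 16. AA10 windows lay in *Fzd7* with 14 and in *Tcf7l1*, a repressor of Wnt targets in ESCs, with 10. Axon guidance genes held 3 windows, all Wt25, in *Sema3c*, *Sema6b* and *Slit2*, which encode guidance ligands, with 16, 19 and 9 CpGs. That was 0.845%, against 0.293% of other windows and 0.526% of CpG-dense genome bins. Of the 58 other windows in genes of this list, 58.6% were Wt25. Every base of the *Sema3c* window was marked as a repeat. Clustered protocadherins held 2 Wt25 windows, in the first exons of *Pcdha1* and *Pcdha9*. These made up 0.563%, against 0.0557% of other windows and 0.208% of CpG-dense genome bins. The annotation also places the window of *Pcdha9* inside overlapping genes of that cluster.

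The other lists held fewer windows. Among neurotransmitter receptors, *Adra1d*, an adrenergic receptor, held a Wt25 window with 10 CpGs in a coding exon. Chromatin modifiers held Wt25 windows in *Arid1b* and *Kdm2a*, zinc finger genes in *Zfp641* and *Zfp934*, and ion channels in *Kcnab3*, an auxiliary subunit of potassium channels. For chromatin modifiers that was 0.563% of the CpG-dense windows, against 1.06% of other windows and 0.916% of CpG-dense genome bins. For ion channels it was 0.282%, against 0.364% and 0.913%. Zinc finger genes held 0.563% of the CpG-dense windows, against 1.46% of the other windows and 1.39% of CpG-dense genome bins, and *Zfp934* lay in a dense run. Imprinted genes held the 2 windows shared by *Nnat* and *Blcap* (0.563%, against 0.111% of other windows and 0.251% of CpG-dense genome bins). Collagens, laminins, integrins and Adamts proteases held 0, against 79 other windows (0.400%) and 0.481% of CpG-dense genome bins. The lists were counted, not tested, and no direction is read from counts this small.

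The direction of the windows differed between chromosomes. On chromosome 6, 4 of 22 were Wt25 (18.2%), against 66.4% of those on all other chromosomes (odds ratio 0.113, 0.0272 to 0.355, Fisher's exact test with Benjamini-Hochberg adjustment over 20 chromosomes, adjusted *P* = 0.000203). Of the 1114 other windows on chromosome 6, 11.8% were Wt25. The 18 AA10 windows there lay at both ends and in the middle of the chromosome, among them *Hoxa2*, *Hoxa9*, both windows of *Podxl*, *Tcf7l1* and *Tnfrsf1a*. The 4 Wt25 windows lay between genes nearest to *Ptprz1*, *Mir148a* and *Rprl1*, and at a transcript end within *Etv6*. On chromosome 7, 17 of 18 were Wt25 (odds ratio 10.5, Fisher's exact test, adjusted *P* = 0.0438), against 75.0% of 1267 other windows, and the exception lay past the end of *Krtdap*. The call on chromosome 7 was lost when windows in dense runs were left out on all chromosomes (odds ratio 9.06, Fisher's exact test, adjusted *P* = 0.0885). No other chromosome passed the threshold. Without chromosome 6, 66.4% of 333 CpG-dense windows and 61.0% of 19257 others were Wt25 (odds ratio 1.26, *P* = 0.0472, Fisher's exact test).

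**Figure D5:**
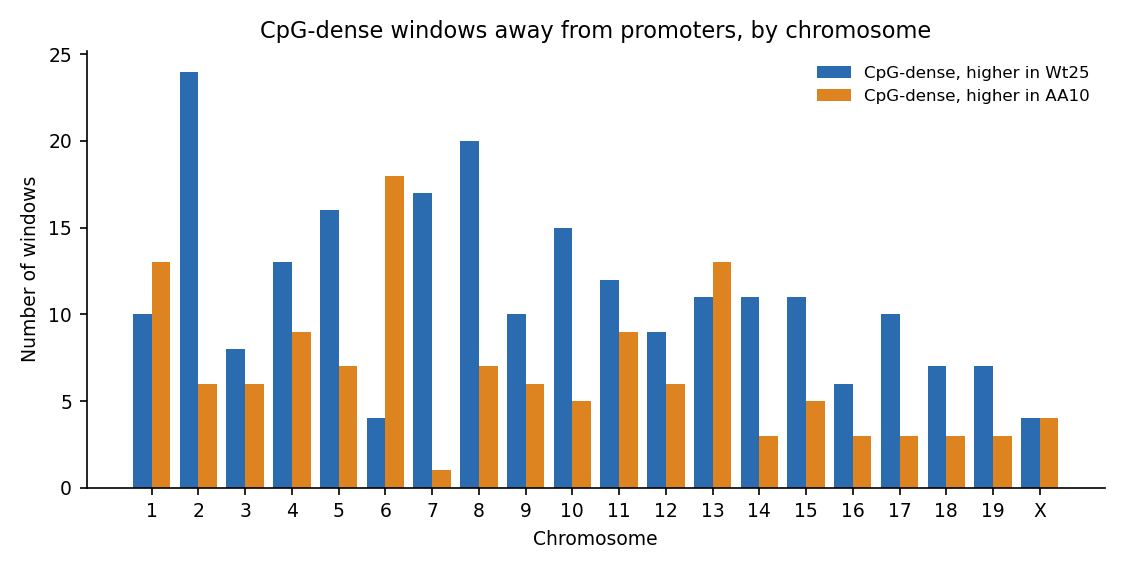
Number of CpG-dense windows away from promoters with higher 5hmC in Wt25 or AA10 cells on each chromosome that holds such a window. AA10 windows lead on chromosome 6 (4 Wt25 and 18 AA10), and Wt25 windows lead on chromosome 7 (17 and 1) and chromosome 2 (24 and 6).

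Dense runs, at least 20 consecutive windows of 1 direction with gaps of at most 10000 bp, held 32 of the windows, 9 of the Wt25 (4.00%) and 23 of the AA10 (17.7%). They held 15.2% of the other listed windows, with both directions together. The Wt25 share of those other windows was 58.3% with the runs and 60.8% without them. AA10 windows were thus more often in runs than Wt25 windows among the others as well, and the difference was not tested. The largest groups were the 7 Wt25 windows of the run at *Itpka*, *Ltk* and *Rpap1*, 7 AA10 windows of a run on chromosome 1 far downstream of *Tsn*, and 5 AA10 windows of a run on chromosome 12 nearest to *Gm38538* and *Gm4425*. The 7 windows of the chromosome 1 run held 8 to 15 CpGs at 160626 to 182226 bp from the start of *Tsn*, and at least 97.5% of the bases of each were marked as repeats in the reference. With all runs left out, 323 windows remained, of which 66.9% were Wt25 against 60.8% of 17275 other windows.

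Bases marked as repeats in the reference made up at least 50% of 91 windows (25.6%, 21.4 to 30.4), against 27% of the other windows away from promoters (odds ratio 0.930, 0.723 to 1.19, *P* = 0.588, Fisher's exact test) and 34.0% of CpG-dense genome bins. The share was 23.1% in Wt25 and 30.0% in AA10 (odds ratio 0.701, 0.420 to 1.18, *P* = 0.166, Fisher's exact test), and without dense runs the odds ratio was 1.04. No base was marked in 157 windows (44.2%) and all bases were marked in 48 (13.5%). Of the 264 windows with less than 50% of their bases in repeats, 65.5% were Wt25, against 59.2% of 14958 others (odds ratio 1.31, *P* = 0.0372, Fisher's exact test).

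Motifs with a CpG or of GC-rich sequence were searched on both strands of the 198 bp, none of which contains another. The *Msp*I site CCGG was in 66.2% of windows higher in Wt25 and 64.6% of those higher in AA10, against 20.5% of the other windows and 68.1% of CpG-dense genome bins. The GC box GGGCGG was in 24.4% and 30.0%, against 27.6% of genome bins, and the E-box CACGTG in 4.89% and 3.08%, against 5.22%. The E-box CAGCTG, bound by neuronal basic helix-loop-helix factors among others, was in 9.78% and 8.46%, against 11.4%. The cAMP response element TGACGTCA was in 1 Wt25 window near *Dcaf12l2* and 1 AA10 window near *AF067061*, against 2.89% of genome bins. The NRF1 core GCGCATGC was in 0 Wt25 windows and 4 AA10 windows (3.08%, 1.20 to 7.64), against 1.25% of genome bins. Those 4 lay in an intron of *Asap3*, past the end of *Krtdap*, and between genes nearest to *A730036I17Rik* and *Slc45a1*. None of the 6 motifs differed between directions after adjustment, with 0.105 the smallest adjusted *P* (NRF1 core, Fisher's exact test, unadjusted *P* = 0.0175).

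At the limits of the rule, 21 windows (14 Wt25 and 7 AA10) had the lowest GC content of 50.5%, and 24 windows past the CpG limit (18 and 6) lay just outside at 50.0%. The lowest CpG ratio inside was 0.609, in 14 windows (8 and 6), and 2 windows (both Wt25) lay just outside, at just under 0.6. The windows nearest to a start were 103 bp downstream of an annotated start of *Mon1b* and 1066 bp upstream of one of *Gsc*, both Wt25. Just outside lay CpG-dense promoter windows 99 bp downstream of the start of *Frmd3* (AA10) and 936 bp upstream of that of *Bcl2l11* (Wt25).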

How the data were processed

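The series held 24 samples, of which the 3 5hmC-DIP libraries of each line bear on the lists analysed here. The authors kept unique STAR alignments to GRCm38 without Picard duplicates and called 200 bp bins that differed between the lines by MEDIPS. Bins on IgG-DIP peaks, on low complexity sequence or on simple tandem repeats were discarded, and HOMER annotated those left. Tool versions are not given in the sources used here. The deposited lists pool the replicates of each line. Their values are positions and a gene identifier, with no depth, so a list could not be thresholded anew.

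GC content, CpGs and repeat marks were read from GRCm38.p6 over the listed 198 bp. Start sites, features and genes came from curated RefSeq transcripts of that assembly, with features by midpoint as termination site first, then coding exon, UTR (5′ before 3′), other exon, intron or intergenic. All genome bins without unknown bases gave the genome shares. Directions and features were compared with two-sided Fisher's exact tests, adjusted by Benjamini-Hochberg over 7 features, 6 motifs or 20 chromosomes, at a threshold of 0.05, and within chromosomes by Mantel-Haenszel. Shares have 95% Wilson intervals, which cover the counting of windows only. Windows that lie close together are not independent, so joined windows and lists without dense runs stand as alternatives. The members and gene lists were chosen with earlier results of these data known. Named genes were those with most CpG-dense windows of each direction, the 5 windows of each direction with most CpGs, up to 4 genes of each gene list and the windows at the limits of the rule. The other genes with a CpG-dense window in the lists of developmental transcription factors and signalling genes were named as well, after their values had been seen. A result that the rule would name is not reported here. Sequences shown were the windows with most CpGs per direction in coding exons, introns and intergenic sequence, among those without repeat-marked bases, off chromosome 18 and without overlap with a curated UTR, except an AA10 window that overlaps an untranslated part of a predicted transcript. RNA-seq, H3K27ac and input libraries were not analysed here. The computations were tested on simulated data (16 checks, 16 passed) with scipy 1.17.1, statsmodels 0.14.6, numpy 2.4.6 and pandas 2.3.3 in Python 3.11.15, and plotted with matplotlib 3.10.9.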

Additional observations from a re-analysis of the deposited data

How the results depend on the processing

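The odds ratio of Wt25 direction in CpG-dense windows away from promoters ranged from 0.936 to 1.33 over 14 alternatives. It passed the threshold within chromosomes (1.28), without chromosome 6 (1.26), without dense runs (1.30), outside repeats (1.31) and without dense runs and chromosome 6 (1.33, added after the data had been seen), and not with windows joined, under stricter sequence limits or with wider promoters. It turned to 0.936 against other windows with a GC content over 50% only (also added later), where the comparison windows were 64.9% Wt25. Between directions, the intergenic odds ratio turned to 1.17 with windows within 1 kb joined, 1.25 without dense runs and 1.13 outside repeats, and the intron odds ratio passed the threshold without dense runs (0.475). Against other windows, the intergenic odds ratio no longer passed with windows joined (0.827) or without dense runs (0.817). Repeats by direction turned to 1.04 without dense runs, CAGCTG to 0.941 outside repeats, and CCGG to 0.938 with windows joined. The chromosome 7 odds ratio was 9.06 and no longer passed without dense runs (the last settings for repeats and chromosomes were added later). Gene counts were 208 and 116 by nearest start site and 202 and 109 by the deposited gene. The cause of these changes was not tested. A limit of at least 8 CpGs gave no value, since every window held as many, and the NRF1 core and, outside repeats, the cAMP response element gave no odds ratio. No replicate could be left out and no stricter threshold set. No paired analysis was possible because the lists pool the replicates of each line. In 39 other cases direction and call were unchanged.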
